A study of Mus musculus with 20 samples.

Results

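The spleen was one of 5 organs, with small intestine, liver, kidney and heart, whose polyadenylated RNA was sequenced from WT mice and from mice lacking Nsun6, an RNA cytosine methyltransferase. The 4 spleen libraries, 2 WT and 2 KO, made up the spleen set among 20 libraries, and the other 16 libraries, 2 of each genotype in each organ, were the comparison. The mice were females 8 weeks of age, the KO allele was a CRISPR/Cas9 deletion of exons 3 and 4 of Nsun6 made in C57BL/6J zygotes, and each dissected tissue was frozen and ground with no sorting of cells, so that a library held a mixture of cell types and blood. The stretch of small intestine taken is not given in the sources used here. The labels give no treatment beyond the genotype. The labels do not say which libraries came from the same animal. The deposited table held counts for 55401 genes, and total counts were 34687048 and 25021003 in the WT spleens and 30041724 and 28636897 in the KO spleens, within the range of 15897446 to 44508197 over all 20 libraries. Levels are given as RPKM, counts divided by the gene's exon length and by the library size after TMM scaling, values with ± are the mean and SD of 4 libraries, and fold changes are from edgeR's quasi-likelihood test, with p-values adjusted by Benjamini and Hochberg's method. A gene was called at an adjusted p under 0.1 and a fold over 2, and "the mean of the organs" stands for the average of the 4 pairwise log2 fold changes. Nsun6 had 317 and 167 counts in the WT spleens and 177 and 282 in the KO spleens, 1.05 ± 0.255 RPKM. That count covers the whole gene, the 2 deleted exons included, and so does not check the genotype.

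Several libraries stood apart from their group. Spleen WT replicate 2 held transcripts of liver: over 112 genes with high counts in liver, its median level was 1.199% of the liver level, against 0.00611% in spleen WT replicate 1, 0.0485% in KO replicate 1 and 0.0743% in KO replicate 2. The 10 hepatocyte genes listed summed to 38.2, 1950.3, 113 and 132 RPKM in the 4 spleens in the order WT 1, WT 2, KO 1 and KO 2, with Alb the most abundant at 1146 RPKM in WT replicate 2. Spleen KO replicate 1 held 50.7 RPKM over 8 kidney genes, against 0.426 to 0.777 in the other 3 spleens, and Kap was the most abundant at 47.9 RPKM. Small intestine WT replicate 1 had the most B cell transcripts outside the spleen, a sum of 251 RPKM over 26 genes, where the other 3 small intestine libraries had 13.9 to 60.1. The small intestine libraries also split by replicate number in both genotypes. Fabp1, a fatty acid carrier of enterocytes and hepatocytes, was at 19.5 and 249.7 RPKM in WT and KO replicate 1 and at 10169 and 12847 RPKM in WT and KO replicate 2. Apoa4, an apolipoprotein of enterocytes, was at 15.3 and 26.6 RPKM against 605 and 1356 RPKM. With the small intestine libraries numbered 1 alone 2493 genes were higher in the spleen than in every organ, and with those numbered 2 alone 2424, and genes whose call against small intestine changed are named with their values where they are described. Without spleen WT replicate 2, 2132 genes were higher in the spleen than in every other organ, without spleen KO replicate 1, 2093, and without small intestine WT replicate 1, 2445, against 2356 with all libraries. Log2 CPM values of the spleen libraries correlated with each other at Pearson's r of 0.964 to 0.981 across genes and with libraries of the other organs at 0.705 to 0.799. These r values are across genes of libraries that share their most abundant transcripts and are given as a description.

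The spleen joins lymphoid and blood-filtering tissue in one capsule. The white pulp is lymphoid tissue, with B cell follicles, T cell zones and a marginal zone that meets the blood, held in place by stromal cells that secrete chemokines. The red pulp filters blood: its macrophages take up aged red cells and recycle their iron. In mice the red pulp also makes red cells, platelets and granulocytes throughout life. Development of the organ needs mesenchymal transcription factors, among them Tlx1.

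One gene from each compartment is a marker of the organ. Cd79a (ENSMUSG00000003379, chr7:24897381-24902197 in mm10), the Igα chain that signals from the B cell receptor, was at 393 and 315 RPKM in the WT spleens and 321 and 189.9 RPKM in the KO spleens. The other 16 libraries ranged from 0 to 22.7 RPKM with a median of 0.651, and the highest was small intestine WT replicate 1. All spleen libraries were above all others. The spleen values gave a log2 fold change of 7.80 (SE 0.77, adjusted p = 2.0e-06) against the mean of the organs and a log2 fold change of 5.50 (SE 1.26, adjusted p = 0.0027) against small intestine, the nearest organ. In unsorted tissue, fewer cells of a type and less RNA per cell cannot be told apart.

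Spic (ENSMUSG00000004359, chr10:88674772-88685015), the transcription factor of red pulp macrophages, was at 25.1 and 30.7 RPKM in the WT spleens and 28.9 and 23.2 RPKM in the KO spleens. The others ranged from 0 to 2.22 RPKM with a median of 0.112, with the highest values in liver (1.62 ± 0.518 RPKM). The groups did not overlap, and the log2 fold change of 4.07 (SE 0.64, adjusted p = 0.00014) against liver was the smallest of its 4 pairwise values. Tlx1 (ENSMUSG00000025215, chr19:45150680-45156943), without which no spleen forms in mice, was at 7.03 and 6.97 RPKM in the WT spleens and 6.74 and 3.75 RPKM in the KO spleens. Its transcripts were at 0 in all 12 libraries of small intestine, liver and kidney, which puts the spleen at least 487-fold, 402-fold and 504-fold higher against a floor of 3 counts over the 4 libraries of an organ. Only heart held a trace, up to 0.128 RPKM, and the spleen exceeded it with a log2 fold change of 7.16 (SE 0.62, adjusted p = 1.9e-05). KO replicate 2 was the lowest spleen library for all 3 markers.

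**Figure D1:**
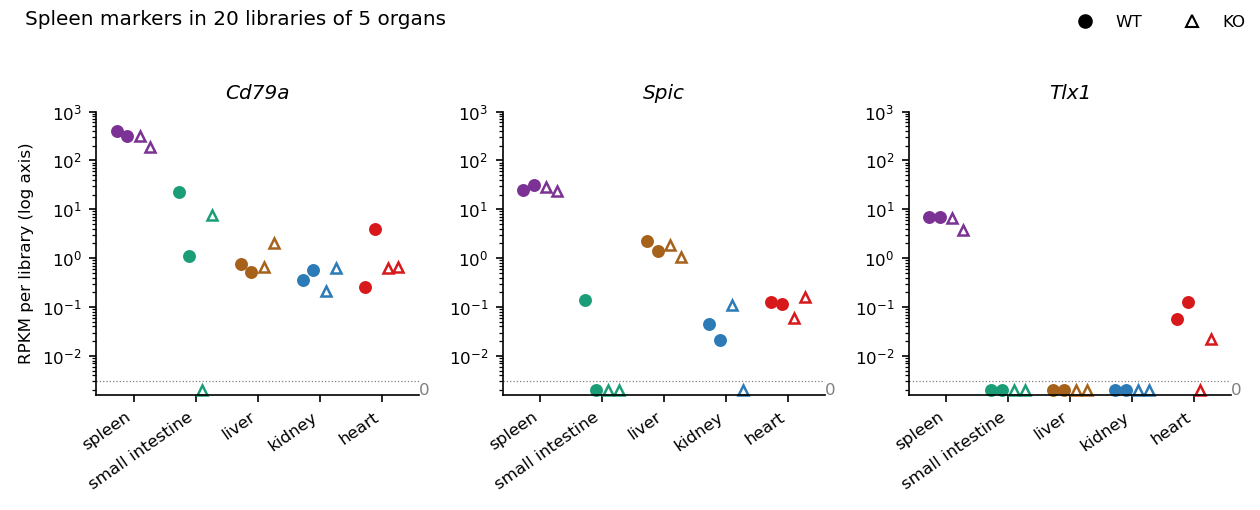
RPKM of Cd79a, Spic and Tlx1 in each of the 20 libraries, on a log axis, by organ, with 1 point per library, filled for WT and open for KO, and libraries at 0 on the lowest line. The 4 spleen points lie above the 16 others in each panel: 190 to 393 RPKM against at most 22.7 for Cd79a, 23.2 to 30.7 against at most 2.22 for Spic and 3.75 to 7.03 against at most 0.128 for Tlx1.

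Of 23159 genes tested, 5843 were higher and 4055 lower than the mean of the organs, which is 25.2% and 17.5%. Against single organs the higher and lower shares were 25.4% and 24.1% for small intestine, 29.7% and 22.5% for liver, 24.1% and 26.4% for kidney, and 27.5% and 25.2% for heart. The 2356 genes called higher than in every organ were 10.2% of those tested, and the 1120 called lower than in every organ were 4.84%. The median log2 fold change over all tested genes was 0.01 against the mean of the organs, and -0.04 with organs at 0 set to their floor. All 4 spleen libraries lay above all 16 others for 2832 genes, 12.2%, and below them for 1413, 6.1%. A gene at 0 in a whole group can have a p of 1 at a large fitted fold in this fit. Against the mean of the organs, 1768 genes had a p of about 1 at a fitted fold over 2. How many of them were at 0 in a group was not counted. The counts of calls can thus leave out genes seen in 1 organ alone.

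A stricter set asked for at least 1 RPKM in every spleen library and 10 times the level of any other library. It held 80 genes, of which 76 passed the filter on low counts, 0.328% of those tested. Its values chose it, so they are given as a description. Summed over the set, the spleens held 2961 and 2985 RPKM (WT) and 3445 and 3834 RPKM (KO), while the highest other library, small intestine WT replicate 1, held 92.6. The median log2 fold change against the mean of the organs was 7.91, or 7.45 with organs at 0 set to their floor, and 8 genes were at 0 in all 16 other libraries. At the limit, Treml2, Evi2 and Ly6c2 were inside with lowest spleen values of 10.3, 10.2 and 10.1 times the highest other library, and Sirpb1b, Ncr1 and Slc28a2b were outside at 9.99, 9.96 and 9.96 times. Small intestine WT replicate 1 was the highest other library for 25 of the 80, and 211 genes met the rule when it was left out with the scaling of the other libraries kept, with the B cell genes going from 1 to 20. With the scaling computed anew the count was 215.

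Of the 80 restricted genes 24 were in a hand-written list of cell type genes or factors, and the others were in none of these. Among the others, Ighd1-1, Igkv14-126 and Igkv4-78 were immunoglobulin segments, and Traj4, Trbd2 and Trdd2 T cell receptor segments. The erythroid list gave 8 (Gata1, Epb42, Ermap, Hemgn, Kel, Rhag and Trim10 among them), and the neutrophil list 5 (Mpo, Elane, Ctsg, Camp and Cxcr2). The T cell list gave Ccr7 and Lef1, the red pulp macrophage list Spic and Itgad, the antibody genes Ighm, Ighg2c and Ighg3, and the mesenchyme list Tlx1. Coch, which encodes the secreted protein cochlin, was the most abundant of the 20 restricted genes named by rule, at 283 and 287 RPKM in the WT spleens and 240.4 and 229 RPKM in the KO spleens. The highest of the other 16 libraries was at 2.29 RPKM. Nr5a1, a nuclear receptor that the vessels of the spleen need in development, was at 2.60, 3.53, 2.26 and 1.59 RPKM in the 4 spleens and at most 0.117 RPKM elsewhere. It was at 0 in kidney and heart, which puts the spleen at least 407-fold and 381-fold higher. Redrum, a long non-coding RNA of erythroid cells, was at 1.07, 2.46, 5.66 and 5.10 RPKM and at 0 in all 16 other libraries, at least 244-fold below the spleen in liver and at least 306-fold below in kidney. Cldn13, a claudin made by mouse erythroid cells, was at 17.3, 40.9, 102 and 81.5 RPKM and at 0 in liver, at least 1973-fold lower. Prg3, a granule protein of eosinophils, was at 14.5, 8.20, 9.71 and 12.5 RPKM against at most 0.184 RPKM elsewhere. Slc38a5, an amino acid transporter of erythroid cells, was at 4.42, 12.7, 23.5 and 14.5 RPKM against at most 0.331 RPKM, and Trim58, a ubiquitin ligase of late erythroid cells, at 1.46, 1.38, 3.63 and 4.78 RPKM against at most 0.0724 RPKM.

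**Figure D2:**
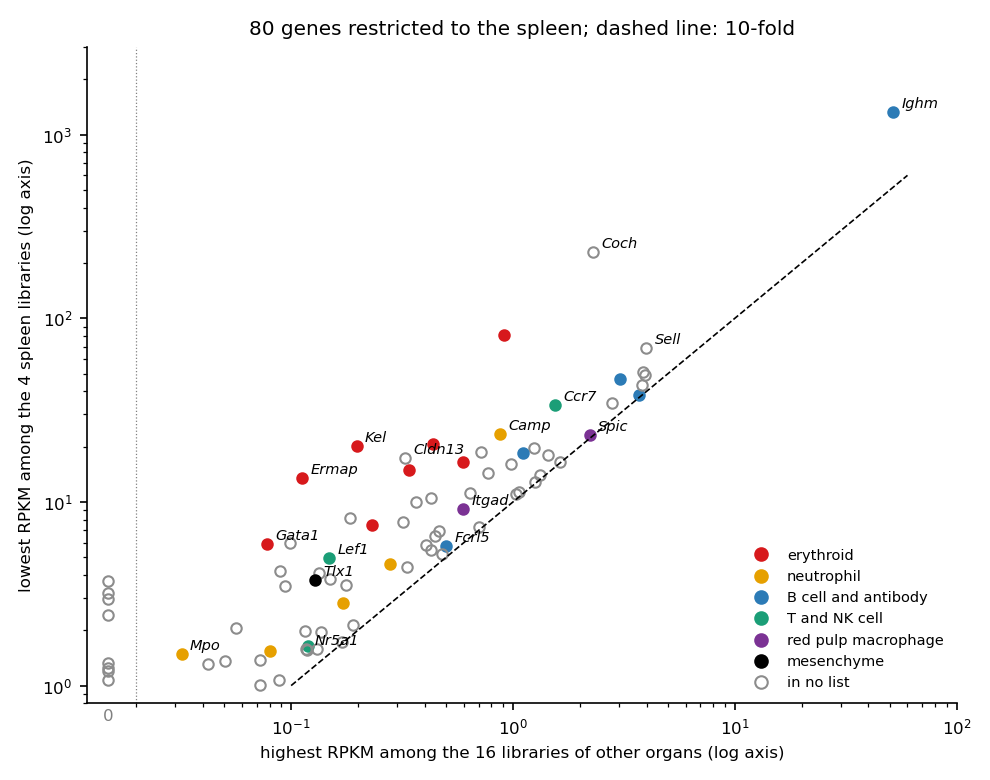
Each of the 80 spleen-restricted genes plotted by its lowest spleen library (y axis, RPKM, log scale) against its highest library of any other organ (x axis, RPKM, log scale). Colours mark the hand-written lists, the dashed line is the 10-fold rule, and the 8 points at the left edge are genes at 0 in all other libraries. Ighm and Coch have the highest spleen levels, and Kel and Gata1 lie far to the left of the line.

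All 26 B cell genes listed were tested, and all 26 were higher than in every organ, with a median log2 fold change of 7.19 against the mean of the organs (0.01 over all genes). The summed level was 2260.4, 1923, 1915 and 1497 RPKM in the 4 spleens and 9.41 to 251 RPKM elsewhere. Pax5, the factor that holds B cell identity, was at 38.6 and 29.7 RPKM in the WT spleens and 27.4 and 19.9 RPKM in the KO spleens and at most 3.57 RPKM elsewhere (log2 fold change 8.12, SE 0.75, adjusted p = 1.2e-06). Ms4a1, which encodes CD20, was at 86.9, 83.7, 63.9 and 92.8 RPKM, and the highest other library was again small intestine WT replicate 1 at 15.9 RPKM. Fcmr, the receptor for the Fc part of IgM, was the only B cell gene in the restricted set, with 62.5, 52.1, 57.3 and 38.14 RPKM against at most 3.68 RPKM. With WT libraries alone 18 of the 26 were called, and with KO libraries alone 26. Over all genes these fits called 1189 and 1904, against 2356 with all libraries.

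Genes of B cell subsets were less uniform. Of 7 marginal zone B cell genes 5 were higher than in every organ, among them Cr2, the complement receptor CD21 (57.3, 32.8, 42.9 and 47.8 RPKM, at most 6.29 elsewhere), and Dtx1, a Notch target (log2 fold change 5.48, SE 0.31, adjusted p = 7.1e-09 against the mean of the organs). Cd1d1, which presents lipids to NKT cells, was at 17.6 ± 2.31 RPKM in spleen and 187 ± 30.3 RPKM in liver, lower in the spleen with a log2 fold change of -3.41 (SE 0.25, adjusted p = 8.5e-08). Of 8 germinal centre genes 2 were higher than in every organ, Gcsam among them, a share to be read against the 10.2% of all genes tested, and Fas, a death receptor, was called lower than the mean of the organs. Rgs13, a G protein regulator of germinal centre B cells, was at 2.08, 2.29, 2.71 and 7.34 RPKM in spleen and 24.8 ± 32.0 RPKM in small intestine, with a log2 fold change of -2.40 (SE 0.62, adjusted p = 0.0061), and did not pass against the small intestine libraries numbered 2 alone (log2 fold change -1.28) or with WT libraries alone (-1.73).

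Most antibody constant region genes were higher in the spleen than in every organ, while Igha, Ighe and Igkc did not pass the threshold against small intestine. Of 12 constant region genes 9 were higher than in every organ, and the sum was 8303, 7576, 10179.5 and 9850.2 RPKM in spleen, 134 to 7040 RPKM in small intestine and 27.1 to 45.0 RPKM in liver. Ighm, the μ chain of IgM, was at 1408 and 1329 RPKM in the WT spleens and 1405 and 1708 RPKM in the KO spleens. The other 16 libraries ranged from 2.98 to 51.9 RPKM with a median of 6.25, and the groups did not overlap (log2 fold change 6.30, SE 0.73, adjusted p = 8.1e-06 against small intestine). Ighd, the δ chain of naive B cells, was at 488, 377, 377 and 294 RPKM against at most 42.7 RPKM. Igha, the α chain of IgA, was at 150.3, 114, 263 and 234 RPKM in spleen and 302 ± 375 RPKM in small intestine, and the values overlapped (log2 fold change -0.58, SE 0.78, adjusted p = 0.56). Igkc, the κ light chain and the most abundant of the list, was at 5600.2 ± 1059 RPKM in spleen and 2418 ± 2493 RPKM in small intestine (log2 fold change 1.23, SE 0.88, adjusted p = 0.26). Without small intestine KO replicate 2, the library with the most antibody transcripts, the log2 fold changes were 1.90 for Igha and 3.74 for Igkc, both past the threshold, and without KO replicate 1 that of Igha was -1.07, also past it. Against the small intestine libraries numbered 1 alone Igha was at 1.96 and Igkc at 4.16, and against those numbered 2 alone Igha was at -1.13, all past the threshold. Igkc also passed with limma (2.88), without a filter on low counts (1.25) and with the replicate number as a block (1.79), so its call depended on the setting.

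Of 10 plasma cell genes 2 were higher in the spleen than in every organ, Mzb1, a chaperone of antibody assembly, and Irf4, a factor of plasma cell fate, beside 10.2% of all genes tested. Jchain, which joins IgM and IgA into polymers, was at 301, 298, 389 and 656 RPKM in spleen and 457 ± 370.2 RPKM in small intestine (log2 fold change -0.18, SE 0.78, adjusted p = 0.89). Xbp1, Prdm1 and Sdc1 were called lower in the spleen than in small intestine. The table listed 395 immunoglobulin segments and constant regions, 219 were tested, and 159 were higher than in every organ. By locus these were 84 of 100 tested in Igh, 65 of 109 in Igk and 10 of 10 in Igl. All the segments of these loci that were tested were called higher against liver, kidney and heart, so the rest were missed against small intestine. Segments at 0 in an organ, 137 of the 219, passed the filter on low counts through the organs where they were high. Being higher than in liver, kidney and heart was thus largely fixed by the filter and is given as a description. Segments share near-identical copies, and how reads were split among them is uncertain.

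In the RefSeq promoter sequences (GRCm38.p6), the octamer ATGCAAAT, the site bound by the Oct factors that act with Pou2af1, was searched on both strands in the 250 bases before each start. It was in 2 of 25 windows of the 21 B cell genes matched, 8.0%, and in 1.6% of all 32851 windows. The windows that hold it are shown around the match, which is in capitals (here on the other strand, read as ATTTGCAT), because Blnk and Vpreb3 were among the genes higher than in every organ. A match is a description of letters and no evidence of binding.
Blnk (chr19:40994322-40994373, minus strand): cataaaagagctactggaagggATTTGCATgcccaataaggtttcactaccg
Vpreb3 (chr10:75948233-75948284, plus strand): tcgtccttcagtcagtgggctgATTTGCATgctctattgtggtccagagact
The matches begin 130 bases before the start of Blnk, an adaptor of B cell receptor signalling, and 45 bases before that of Vpreb3, a partner of the pre-B cell receptor.

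T cell genes followed, with a smaller distance to the small intestine. Of 27 listed and tested, 22 were higher in the spleen than in every organ, with a median log2 fold change of 5.29 against the mean of the organs and 3.19 against small intestine. The sum was 1112, 676, 889.6 and 1024 RPKM in the spleens, 22.5 to 181 RPKM in small intestine and at most 27.8 RPKM in the remaining organs. Trbc2, a constant region of the β receptor chain, was at 293 and 167 RPKM in the WT spleens and 257 and 278 RPKM in the KO spleens. The others ranged from 0.217 to 41.3 RPKM with a median of 2.94, with no overlap (log2 fold change 3.19, SE 0.53, adjusted p = 0.00019 against small intestine). Ccr7, which guides naive T cells into lymphoid tissue, was at 45.3, 33.5, 35.4 and 34.96 RPKM and at most 1.54 RPKM elsewhere. Lef1, a factor of naive T cells, was at 7.15, 5.32, 5.86 and 4.93 RPKM and at most 0.149 RPKM (log2 fold change 7.61, SE 0.52, adjusted p = 3.9e-08 against the mean of the organs). Foxp3, the factor of regulatory T cells, was low at 1.13, 0.753, 0.770 and 0.951 RPKM, yet above all other libraries, which reached 0.123 RPKM. Spleen WT replicate 2 was the lowest spleen library for Trbc2 and for the sum.

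The 5 T cell genes not called in all comparisons were Cd3e, Cd8a, Zap70, Ctla4 and Bcl11b. Cd8a, the coreceptor of cytotoxic T cells, was at 26.3 ± 6.95 RPKM in spleen and 13.97 ± 9.69 RPKM in small intestine (log2 fold change 0.98, SE 0.59, adjusted p = 0.18), and passed without small intestine KO replicate 2 at a log2 fold change of 2.31 and against the small intestine libraries numbered 1 alone at 2.61. Ctla4, an inhibitory receptor, was at 4.28 ± 0.508 RPKM in heart, and the spleen value did not differ past the threshold (log2 fold change 0.15, SE 0.66, adjusted p = 0.89). Receptor segments split by locus. The table held 191 Tra and 53 Trb segments. Of 41 tested Tra segments 33 were higher than in every organ, and of 35 Trb segments 34. Of the 88 receptor segments tested, 63 were at 0 in an organ and passed the filter on low counts through other organs. These counts are therefore given as a description. Of 9 tested Trg segments, those of the γ chain carried by γδ T cells, 0 were higher than in every organ and 6 were lower than in small intestine, Trgc1, Trgc2, Trgc4, Trgj4, Trgv2 and Trgv7. Summed over the 15 Trg segments in the table, the spleens held 29.4, 23.03, 24.7 and 27.2 RPKM and the small intestines 89.1 and 206 RPKM (WT) and 20.1 and 140 RPKM (KO), so that the KO replicate 1 intestine lay below the spleens and the other 3 above them. Against liver, kidney and heart 6, 7 and 8 of the 9 were higher in the spleen. These families also share reads among near-identical copies.

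Cytotoxic genes divided between the spleen and the small intestine. Of 11 NK and cytotoxic genes 7 were higher in the spleen than in every organ, and 3, Gzma, Gzmb and Gzmk, were lower than in small intestine. Klrd1, the CD94 receptor of NK cells, was at 40.4, 34.4, 33.1 and 38.9 RPKM (log2 fold change 1.39, SE 0.45, adjusted p = 0.019 against small intestine, and a log2 fold change of 0.98 without small intestine KO replicate 1 and 0.76 against the small intestine libraries numbered 2 alone, both short of the fold of 2, as was 0.96 with WT libraries alone). Ncr1, the activating receptor NKp46, was at 4.34, 5.44, 5.57 and 5.61 RPKM with a log2 fold change of 5.19 (SE 0.37, adjusted p = 4.2e-08) against the mean of the organs. Gzma, a granzyme, was at 45.1 and 51.9 RPKM in the WT spleens and 49.4 and 46.9 RPKM in the KO spleens, and small intestine held 329 ± 255 RPKM, with a log2 fold change of -2.63 (SE 0.57, adjusted p = 0.0017). Against the small intestine libraries numbered 1 alone Gzma was at -0.88 and did not reach the fold of 2. Gzmb, the granzyme that cleaves caspases, was at 3.35 ± 0.276 RPKM in spleen and 62.2 ± 42.1 RPKM in small intestine (log2 fold change -4.12, SE 0.60, adjusted p = 6.6e-05). Both granzymes were higher in the spleen than in liver, kidney and heart.

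All 10 MHC class II genes listed were higher than in every organ, with a median log2 fold change of 3.91 against the mean of the organs, and 9 of 12 dendritic cell genes were. H2-Aa, an α chain of MHC class II, was at 668 and 554 RPKM in the WT spleens and 553 and 440.0 RPKM in the KO spleens. The others ranged from 7.70 to 261 RPKM with a median of 29.8, and small intestine WT replicate 1 was the highest (log2 fold change 2.35, SE 0.63, adjusted p = 0.0065 against small intestine). Clec9a, a receptor for dead cells on the dendritic cells that cross-present, was at 13.9, 10.7, 12.3 and 11.1 RPKM and at most 3.66 RPKM elsewhere (log2 fold change 2.99, SE 0.26, adjusted p = 2.5e-07). Siglech, of plasmacytoid dendritic cells, was at 7.05, 7.15, 5.97 and 9.07 RPKM (log2 fold change 4.36, SE 0.39, adjusted p = 3.5e-07). Zbtb46, Clec10a and Dnase1l3 were the dendritic cell genes not called against every organ, the last at 9.70 ± 3.48 RPKM in spleen and 5.59 ± 0.996 RPKM in liver (log2 fold change 0.79, SE 0.51, adjusted p = 0.20). With limma Dnase1l3 passed against liver at 1.95, where the median of all genes was 1.12. With WT libraries alone 5 of the 10 MHC class II genes were called, and H2-Aa, at a log2 fold change of 1.41 against small intestine, was not. Over all genes that fit called 1189, against 2356 with all libraries.

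**Figure D3:**
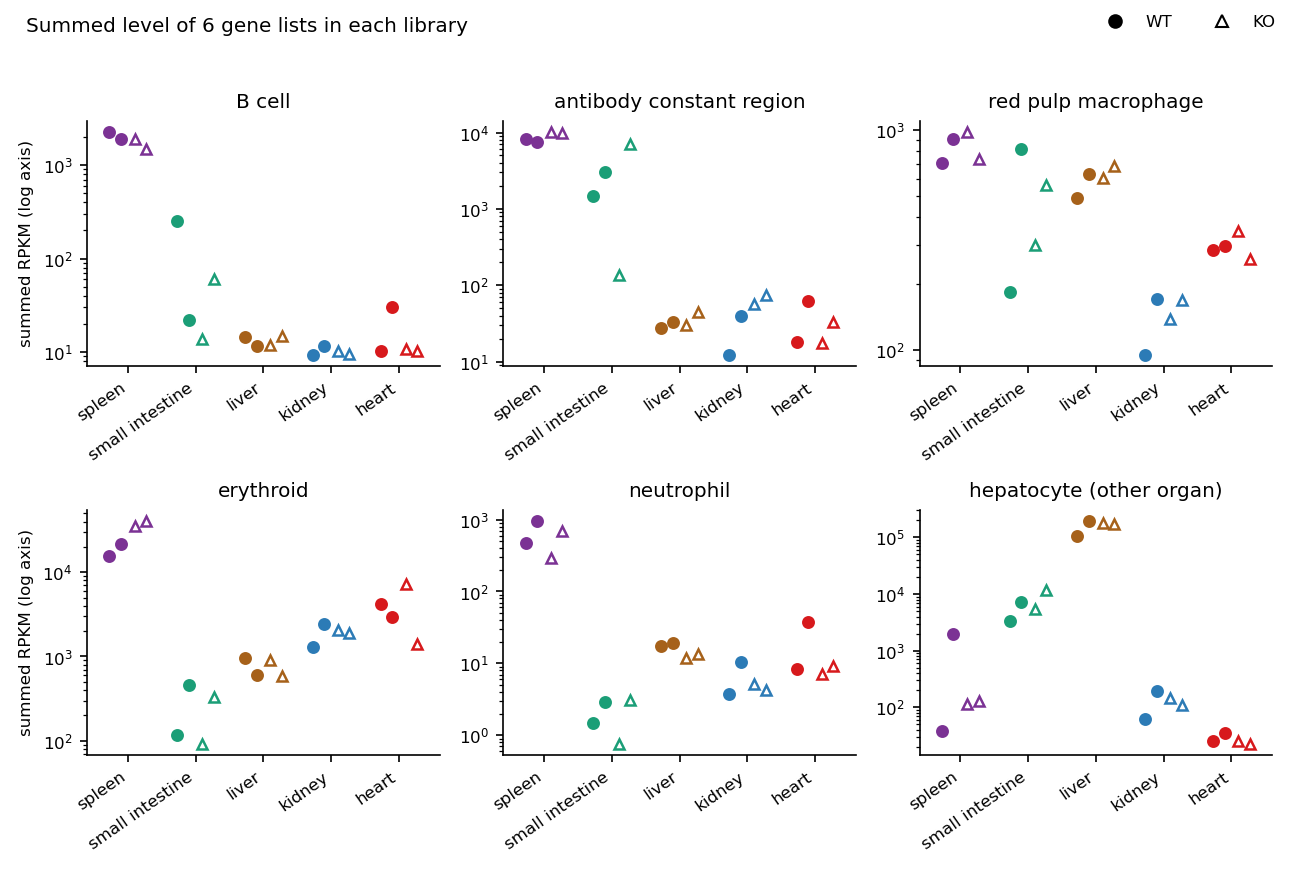
Summed RPKM of 6 gene lists in each of the 20 libraries, on log axes, with 1 point per library, filled for WT and open for KO, coloured by organ. The B cell sums of the spleen, 1497 to 2260 RPKM, lie above every other library, the red pulp macrophage sums of 703 to 976 RPKM overlap those of small intestine, and the hepatocyte sum of spleen WT replicate 2 stands at 1950 RPKM.

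Many macrophage genes were also found in liver, whose Kupffer cells clear blood as well. Of 20 red pulp macrophage genes 9 were higher in the spleen than in every organ (Spic, Itgad, Vcam1, Hmox1, Slc11a1, Adgre1, Csf1r, Treml4 and Cd68), with a median log2 fold change of 2.23 against the mean of the organs and 1.05 against liver. The sum was 703, 904, 976 and 737 RPKM in the spleens and 487 to 682 RPKM in liver. In small intestine it was 183 to 820 RPKM, overlapping the spleens. Hmox1, the heme oxygenase that opens the ring of heme, was at 109.8 and 185 RPKM in the WT spleens and 164 and 76.8 RPKM in the KO spleens. The others ranged from 0.929 to 14.1 RPKM with a median of 10.3 and lay below the lowest spleen, KO replicate 2 (log2 fold change 3.52, SE 0.34, adjusted p = 1.0e-06 against liver). Itgad, the integrin CD11d of these macrophages, was at 9.18, 10.7, 10.6 and 9.19 RPKM and at most 0.594 RPKM elsewhere. Vcam1, an adhesion molecule, was at 40.0, 46.4, 47.7 and 41.5 RPKM and at most 4.35 RPKM (log2 fold change 4.63, SE 0.29, adjusted p = 1.4e-08 against the mean of the organs). Treml4, a receptor of the TREM family, was also present in liver, up to 4.03 RPKM, and was at 12.2, 14.1, 14.5 and 10.6 RPKM in the spleens (log2 fold change 1.92, SE 0.51, adjusted p = 0.0054).

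Other red pulp macrophage genes did not pass the test against every organ. Of the 20, 17 were called higher and 2 lower than in small intestine, and 12 higher and 1 lower than in liver. Over all genes tested the lower shares were 24.1% and 22.5%. The smallest pairwise log2 fold change was -2.29 for Hpgd and -1.97 for Mertk. Slc40a1, ferroportin, the exporter of iron from cells, was at 34.0, 41.0, 39.9 and 32.1 RPKM in spleen, 35.2 ± 4.94 RPKM in liver and 110.4 ± 122 RPKM in small intestine (log2 fold change 0.86, SE 0.57, adjusted p = 0.24 against the mean of the organs, which passed at 1.35 or 1.42 without small intestine WT or KO replicate 2 and at 1.81 without both). C1qa, a chain of complement C1q and the most abundant gene of the list, was at 136 ± 22.6 RPKM against 77.8 ± 12.1 RPKM in heart (log2 fold change 0.80, SE 0.46, adjusted p = 0.16). With limma C1qa passed against heart at 1.42, where the median of all genes was 0.63. Cd163, the scavenger receptor for haemoglobin, was at 5.94 ± 1.33 RPKM in spleen and 7.50 ± 0.997 RPKM in liver (log2 fold change -0.34, SE 0.44, adjusted p = 0.55). Of 6 marginal zone macrophage genes, Marco and Cd209b were higher than in every organ, as 10.2% of all genes tested were. Cd209b, a lectin of marginal zone macrophages, was at 2.77, 3.61, 7.27 and 3.74 RPKM, and heart WT replicate 2 at 3.38 RPKM lay above the lowest spleen. Marco, a scavenger receptor that binds bacteria, was at 32.4, 32.3, 50.5 and 24.9 RPKM in the spleens and 6.67 ± 0.680 RPKM in liver, with no overlap (log2 fold change 2.39, SE 0.64, adjusted p = 0.0072). Fcna, a ficolin of the complement system, was at 44.3 ± 12.02 RPKM and 42.5 ± 13.01 RPKM (log2 fold change 0.08, SE 0.42, adjusted p = 0.93). Cd5l, secreted by tissue macrophages, was lower in the spleen, 22.04 ± 2.53 RPKM against 82.7 ± 11.01 RPKM (log2 fold change -1.91, SE 0.47, adjusted p = 0.0033). With limma its log2 fold change was -0.68, not called, but the median of all genes against liver was 1.12 there instead of 0.24. Siglec1, a receptor of metallophilic macrophages, did not pass the threshold against liver (log2 fold change 0.14, SE 0.58, adjusted p = 0.89). In that limma fit Fcna and Siglec1 passed against liver at log2 fold changes of 1.31 and 1.34.

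All 6 mesenchymal factors listed had counts in the spleen. Of the 6, Tlx1 and Nkx3-2 were higher than in every organ, where 10.2% of all genes tested were. Nkx3-2, a homeobox factor needed for the spleen, was at 0.468, 0.714, 0.172 and 0.397 RPKM and at most 0.0335 RPKM elsewhere, at 0 in liver and heart, and so at least 23.1-fold and 27.1-fold higher in the spleen. Nkx2-5, a homeobox factor of the heart and of the spleen primordium, was at 0.925 and 1.44 RPKM in the WT spleens and 1.22 and 0.959 RPKM in the KO spleens. It was at 12.1 ± 4.58 RPKM in heart, above every spleen (log2 fold change -3.40, SE 0.40, adjusted p = 0.00013), and at 0 in all 12 libraries of small intestine, liver and kidney, at least 72.6-fold, 59.9-fold and 75.1-fold below the spleen. Tcf21, a basic helix-loop-helix factor of mesenchyme, was at 13.5, 13.5, 13.3 and 11.1 RPKM in spleen and 13.4 ± 4.83 RPKM in kidney (log2 fold change -0.07, SE 0.35, adjusted p = 0.91). Wt1, a zinc finger factor of mesothelium and podocytes, was at 2.09, 2.13, 1.96 and 1.87 RPKM and exceeded the mean of the organs (log2 fold change 2.08, SE 0.32, adjusted p = 7.9e-05) but not kidney past the threshold (log2 fold change 0.77, SE 0.46, adjusted p = 0.17). With limma Wt1 passed against kidney at 1.19, where the median of all genes was 0.35.

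The median log2 fold change of these factors against the mean of the organs was 3.94, or 2.90 with organs at 0 set to their floor. Of 15 genes of lymphoid stroma and vessels, 5 were higher in the spleen than in every organ, Ccl19, Cxcl13, Madcam1, Mfge8 and Ch25h, and Ltbr was lower than in every organ, beside 10.2% higher and 4.84% lower over all genes tested. Cxcl13, the chemokine that draws B cells into follicles, was at 136 and 115 RPKM in the WT spleens and 109.5 and 125 RPKM in the KO spleens. Values elsewhere ran from 0 to 40.1 RPKM with a median of 1.39, the highest being small intestine WT replicate 1, which did not reach the spleens (log2 fold change 3.56, SE 1.204, adjusted p = 0.024), though with WT libraries alone the log2 fold change was 2.61 and not called. Madcam1, the addressin of the marginal sinus and of gut venules, was at 10.2, 10.6, 11.3 and 6.66 RPKM and at most 1.49 RPKM elsewhere. It was at 0 in liver, at least 427-fold lower. Mfge8, which bridges dying cells to phagocytes, was at 53.2, 34.2, 50.8 and 33.0 RPKM (log2 fold change 2.77, SE 0.26, adjusted p = 6.4e-07 against the mean of the organs). Ltbr, the lymphotoxin β receptor of stroma, was at 4.46, 4.35, 4.29 and 2.99 RPKM in the spleens and between 10.04 and 47.8 RPKM elsewhere (log2 fold change -2.40, SE 0.23, adjusted p = 8.5e-07). Stab2, a scavenger receptor of sinus endothelium, was at 7.11 ± 1.34 RPKM in spleen and 6.70 ± 0.290 RPKM in liver (log2 fold change 0.08, SE 0.37, adjusted p = 0.91). With limma Stab2 passed against liver at 1.29, where the median of all genes was 1.12. Ccl19, the T zone chemokine, rested on 1 library: it had 835 counts in spleen WT replicate 1 and 21, 44 and 20 in the other 3, and without that library it was still above the mean of the organs at a fitted log2 fold change of 6.80 instead of 8.82. It was at 0 in small intestine, liver and heart, so fitted values depend on the prior count. With all 4 spleens it was at least 167-fold, 138-fold and 162-fold higher than in these organs.

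Red cell genes had the highest summed level of the hand-written lists in the spleen. Of 29 erythroid genes listed, 28 were in the table, 27 were tested and 22 were higher than in every organ, with a median log2 fold change of 7.30 against the mean of the organs. Globin transcripts were 1.74% and 2.41% of counts in the WT spleens and 3.76% and 4.34% in the KO spleens. The summed RPKM was 15773, 21460.3, 35611 and 40617 RPKM, against 1409 to 7196 in heart, 1292 to 2418 in kidney, 592 to 962 in liver and 92.2 to 462 in small intestine. Every organ also held blood.

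Hbb-bs, an adult β globin, was at 6719.7 and 9084 RPKM in the WT spleens and 14498 and 21744 RPKM in the KO spleens, and heart reached 4733 RPKM, below the lowest spleen (log2 fold change 2.28, SE 0.51, adjusted p = 0.0017 against heart). Gata1, the main factor of red cell development, was at 5.89 and 12.2 RPKM in the WT spleens and 23.5 and 12.1 RPKM in the KO spleens and at most 0.0778 RPKM elsewhere, with none in kidney, at least 1259-fold lower. Its lowest spleen value was thus in WT replicate 1. Klf1, a factor that turns on adult globin, was at 6.10, 14.8, 32.9 and 26.8 RPKM (log2 fold change 2.37, SE 0.49, adjusted p = 0.00082 against liver, the organ with the next highest level, and a log2 fold change of 1.28, not called, with WT libraries alone). Kel, the Kell blood group protein, was at 20.1, 30.4, 76.9 and 55.6 RPKM and at 0 in liver, at least 3888-fold lower. Ermap, another blood group protein, was at 13.5, 20.6, 46.6 and 34.1 RPKM and at most 0.112 RPKM elsewhere (log2 fold change 9.53, SE 0.38, adjusted p = 8.4e-10 against the mean of the organs).

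The 5 erythroid genes not called in every comparison included Ank1, Sptb, Car2 and Tfrc. Ank1, the ankyrin of the red cell membrane with a form in striated muscle, was at 1.05, 1.69, 3.80 and 3.04 RPKM in spleen and 18.02 ± 3.09 RPKM in heart, higher in heart (log2 fold change -3.06, SE 0.48, adjusted p = 9.3e-05). Car2, a carbonic anhydrase, was at 151, 245, 572 and 562 RPKM, overlapping kidney at 262 ± 63.4 RPKM (log2 fold change 0.36, SE 1.06, adjusted p = 0.82). Tfrc, the transferrin receptor of dividing cells, did not reach a fold of 2 against small intestine (log2 fold change 0.77, SE 0.36, adjusted p = 0.085). It passed without small intestine WT replicate 1 at a log2 fold change of 1.10, against the small intestine libraries numbered 2 alone at 1.22, with KO libraries alone at 1.33 and with limma at 1.41. Icam4 was listed at 0 in the spleen libraries, and Ahsp was not in the table.

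The GATA letters AGATAAG, the site of Gata1, were searched on both strands of the same 250 bases. They were in 6 of 23 windows of the 21 erythroid genes matched, 26.1%, and in 2.74% of all windows. Among the lists with few windows, they were also in 2 of 7 windows of the kidney genes, 28.6%, and in 1 of 5 of the eosinophil, basophil and mast cell genes, so the share was not highest in the erythroid list. For comparison the letters CCACACCC, bound by Klf1, were in 1 of these 23 windows, 4.35%, and in 3.2% of all. The stretches shown are those of 5 genes with counts in the spleen, with the GATA letters in capitals, read as CTTATCT on the other strand, and the sixth gene with them, Icam4, was listed at 0.
Epb42 (chr2:121037076-121037126, minus strand): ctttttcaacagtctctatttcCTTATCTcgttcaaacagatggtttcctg
Epor (chr9:21963603-21963653, minus strand): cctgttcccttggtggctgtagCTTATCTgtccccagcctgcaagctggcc
Hbb-bs (chr7:103828110-103828160, minus strand): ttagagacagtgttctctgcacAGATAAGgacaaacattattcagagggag
Rhd (chr4:134864471-134864521, plus strand): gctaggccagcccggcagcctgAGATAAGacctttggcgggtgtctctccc
Trim10 (chr17:36869388-36869438, plus strand): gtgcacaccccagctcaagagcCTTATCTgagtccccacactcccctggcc
The match begins 227 bases before the start of Epb42 (protein 4.2 of the red cell membrane), 55 before that of Epor (the erythropoietin receptor), 210 before that of Hbb-bs, 43 before that of Rhd (a blood group antigen) and 164 before that of Trim10. Epb42, Rhd and Trim10 were higher in the spleen than in every organ, as were Epor and Hbb-bs.

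Of 14 megakaryocyte and platelet genes 13 were tested and 10 were higher than in every organ. Ppbp, a platelet chemokine, was at 136 and 201 RPKM in the WT spleens and 100.4 and 155 RPKM in the KO spleens and at most 19.2 RPKM elsewhere, in heart (log2 fold change 4.03, SE 0.48, adjusted p = 1.1e-05 against heart). Pf4, platelet factor 4, was at 105, 152, 75.3 and 90.3 RPKM in spleen and 47.8 ± 16.8 RPKM in heart, where 1 library reached 70.9 RPKM, just below the lowest spleen (log2 fold change 1.12, SE 0.41, adjusted p = 0.031), and without spleen WT replicate 2 the log2 fold change was 0.95 and not called, nor was it in WT libraries alone at 1.51 or in KO libraries alone at 0.70. Vwf, von Willebrand factor of platelets and endothelium, was lower in the spleen than in heart (log2 fold change -2.26, SE 0.37, adjusted p = 0.00013).

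Of 17 neutrophil genes 15 were higher in the spleen than in every organ, with a median log2 fold change of 7.34 against the mean of the organs. The sum was 467, 954, 288 and 689 RPKM in spleen and 7.20 to 37.2 RPKM in heart. S100a9, a calcium-binding protein that fills the neutrophil cytosol, was at 218 and 427 RPKM in the WT spleens and 133 and 331 RPKM in the KO spleens, and the others ranged from 0 to 14.01 RPKM with a median of 1.88 (log2 fold change 7.64, SE 0.32, adjusted p = 9.3e-10 against the mean of the organs). Mpo, myeloperoxidase of the granules formed first, was at 1.98, 4.86, 1.49 and 1.57 RPKM and at most 0.0321 RPKM elsewhere, at 0 in small intestine and kidney, at least 315-fold and 325-fold lower. Elane, neutrophil elastase of the same granules, was at 5.803, 12.8, 4.58 and 7.01 RPKM, and Camp, cathelicidin of granules formed later, at 45.9, 114, 23.3 and 62.5 RPKM. WT replicate 2 was the highest spleen library for S100a9, Mpo, Elane and Camp.

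The letters GAGGAAGT, a site of the ETS factor PU.1 encoded by Spi1, were in 7 of 16 windows of the 15 neutrophil genes matched, 43.8%, and in 2.44% of all windows. The next highest share among the lists was 14.3%, 2 of 14 windows of the red pulp macrophage genes. These windows are shown around the match in capitals, read as ACTTCCTC on the other strand, for 6 genes.
Elane (chr10:79886205-79886256, plus strand): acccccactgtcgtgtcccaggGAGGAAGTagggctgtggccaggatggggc
Ly6g (chr15:75155208-75155259, plus strand): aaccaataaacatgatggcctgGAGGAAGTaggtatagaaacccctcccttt
Mmp8 (chr9:7558186-7558237, plus strand): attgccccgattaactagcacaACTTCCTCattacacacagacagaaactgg
Mpo (chr11:87793538-87793589, plus strand): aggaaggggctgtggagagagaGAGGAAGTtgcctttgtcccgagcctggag
Prtn3 (chr10:79879550-79879601, plus strand): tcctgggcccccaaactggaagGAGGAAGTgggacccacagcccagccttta
S100a8 (chr3:90668877-90668928, plus strand): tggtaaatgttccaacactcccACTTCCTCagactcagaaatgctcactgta
The match begins 85 bases before the start of Elane, 31 before that of Ly6g (a surface antigen of neutrophils), 221 before that of Mmp8 (a collagenase), 224 before that of Mpo, 95 before that of Prtn3 (proteinase 3) and 172 before that of S100a8, the partner of S100a9. Spi1 itself was at 8.41, 9.14, 8.02 and 7.96 RPKM in the 4 spleens (log2 fold change 2.85, SE 0.21, adjusted p = 6.6e-08 against the mean of the organs).

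Of 6 genes of eosinophils, basophils and mast cells, Prg2, Epx and Mcpt8 were higher than in every organ, and the median log2 fold change of 4.995 was 4.30 with organs at 0 set to their floor. Prg2, the eosinophil major basic protein, was at 3.16, 14.7, 9.20 and 21.01 RPKM and at most 2.51 RPKM elsewhere. Of 11 progenitor genes 2 were higher than in every organ, where 10.2% of all genes tested were. They were Runx1 (3.44, 2.88, 2.65 and 2.60 RPKM, log2 fold change 3.95, SE 0.23, adjusted p = 8.1e-09 against the mean of the organs) and Lyl1 (19.5, 17.1, 20.8 and 16.1 RPKM, log2 fold change 4.43, SE 0.32, adjusted p = 5.7e-08), both factors of blood stem cells. Hlf, a factor of stem cells and of liver, was lower than in every organ (log2 fold change -3.00, SE 0.56, adjusted p = 0.00042 against the mean of the organs), and 5 of the 11 were called lower than in kidney, where 26.4% of all genes tested were, and 5 lower than in heart, where 25.2% were. Their summed level was 40.2, 38.09, 40.2 and 30.9 RPKM in the spleens, below the 41.6 to 44.2 RPKM of kidney and the 42.1 to 45.0 RPKM of heart, and with the small intestine libraries numbered 2 alone 4 genes were higher than in every organ. Kit, the stem cell factor receptor, was at 2.70, 2.74, 2.72 and 1.60 RPKM and did not pass the fold of 2 against small intestine (log2 fold change 0.82, SE 0.39, adjusted p = 0.092), though without small intestine WT replicate 1 or KO replicate 1 it did, at log2 fold changes of 1.11 and 1.27, and without both at 1.56. Myb, a factor of immature blood cells, was at 5.91, 6.65, 6.10 and 4.55 RPKM in spleen and 2.66 ± 2.02 RPKM in small intestine (log2 fold change 1.15, SE 0.62, adjusted p = 0.14), with calls at log2 fold changes of 1.98 without small intestine WT replicate 1 and 1.52 without KO replicate 1, and 2.35 without both.

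Cell cycle genes were higher as well, 23 of 26 in every comparison, with a median log2 fold change of 3.42 against the mean of the organs. The median was 1.90 against small intestine, whose epithelium also divides. All 4 spleen libraries lay above all 16 others for 14 of the 26, where 12.2% of all genes tested did. Summed over the list, the spleens held 305, 435, 737 and 629 RPKM, and the highest other library, small intestine WT replicate 1, held 248. Mki67, the Ki-67 antigen of dividing cells, was at 31.3 and 36.4 RPKM in the WT spleens and 88.4 and 85.9 RPKM in the KO spleens. Elsewhere values ran from 0.587 to 20.9 RPKM with a median of 1.21, with small intestine WT replicate 1 the highest (log2 fold change 2.55, SE 0.45, adjusted p = 0.00031 against small intestine). With WT libraries alone 6 of the 26 were called, and with KO libraries alone 23, and Mki67 was not called in WT libraries alone at a log2 fold change of 1.39 against small intestine. Over all genes these fits called 1189 and 1904 higher than in every organ, against 2356 with all libraries.

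**Figure D4:**
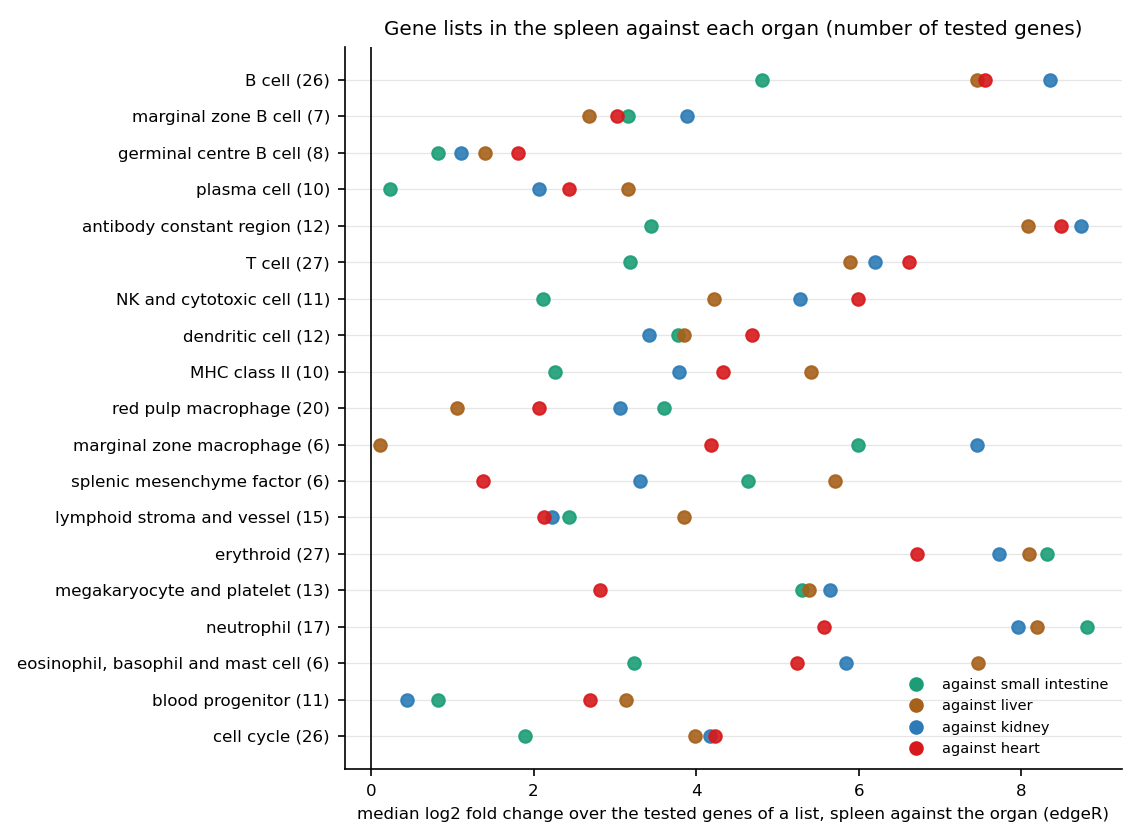
Median log2 fold change of the tested members of each gene list in the spleen against small intestine, liver, kidney and heart, with 1 point per organ. These are fitted values, which for a gene at 0 in an organ depend on edgeR's prior count. B cell, erythroid and neutrophil lists lie between 4.82 and 8.80 in all 4 comparisons, and red pulp macrophage genes lie lowest against liver at 1.05. The median over all tested genes is 0.10 against small intestine and 0.24 against liver.

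Of 23 blood cell transcription factors 20 were higher in the spleen than in every organ and 1 was lower than in every organ. Over all genes tested these shares were 10.2% and 4.84%. The median log2 fold change of the factors was 5.29 against the mean of the organs. Ikzf1, Ikaros of the lymphoid lines, was at 43.1, 35.4, 38.6 and 38.7 RPKM (log2 fold change 5.74, SE 0.29, adjusted p = 3.1e-09 against the mean of the organs), and Eomes, a T-box factor of NK and memory T cells, was at 2.19, 1.64, 1.72 and 1.92 RPKM against at most 0.119 RPKM. Gata3, a factor of T cells, did not pass the test against kidney (log2 fold change -0.69, SE 0.68, adjusted p = 0.42).

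Of the 1120 genes lower in the spleen than in every organ, the 8 with the widest gap to the nearest organ by the naming rule were Grhl2, Gsta1, Mfsd4b3-ps, Plk5, Ppara, Prkaa2, Slc47a1 and Sun3. That gap chose them, so their values are given as a description. Grhl2, an epithelial factor, Gsta1, Plk5 and Sun3 were at 0 in all 4 spleens. Ppara, the receptor that drives fatty acid oxidation, was at 0.01498, 0.184, 0.0119 and 0 RPKM in spleen and 1.59 to 19.9 RPKM elsewhere. Of its 32 spleen counts 27 were in WT replicate 2, the library with liver transcripts. Prkaa2, the α2 catalytic subunit of AMPK, was at 0.137, 0.383, 0.0799 and 0.157 RPKM and 5.29 to 29.6 RPKM elsewhere. Slc47a1, an exporter of organic cations, was at 0.0510, 0.795, 0.430 and 0.111 RPKM, with its highest values in the spleens that held liver or kidney transcripts. The source of the Ppara and Slc47a1 counts in the spleens was not tested.

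Genotype was compared last. The test of whether the spleen's distance to the mean of the organs differed between KO and WT called 0 of 23159 genes by edgeR's quasi-likelihood test (0% in each direction). At an unadjusted p under 0.05 there were 428 genes, 1.85%, DESeq2 called 2 higher and 1 lower, and limma on log2(TPM + 0.1) called 17 in each direction. The 10 genes with the smallest p had adjusted p values of 1.0, among them Pkhd1l1, a large receptor-like protein, at 0.804, 0.917, 2.86 and 3.70 RPKM and Fgf9, a growth factor, at 0.0124, 0.0112, 0.161 and 0.0557 RPKM. For 2083 genes this p was 1 at a fitted fold over 2.

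Within the spleen alone, with 2 libraries a group, 41 of 18834 genes were called higher in KO, 0.218%, and 1 lower, 0.00531%. Of the 27 erythroid genes tested 8 were called higher, among them Slc4a1, Epb42, Trim10, Hemgn, Alas2 and Rhd. Both KO libraries lay above both WT libraries for 24 of the 27, against 14.7% of all genes tested, and the median log2 fold change was 1.34. Slc4a1, the band 3 anion exchanger, was at 44.8, 48.5, 139 and 131 RPKM (log2 fold change 1.57, SE 0.16, adjusted p = 0.066). Alas2, the first enzyme of heme synthesis in red cell precursors, was at 58.5, 63.4, 136 and 164 RPKM (log2 fold change 1.34, SE 0.18, adjusted p = 0.084). Klf1 and Gata1 were not called, and Gata1 overlapped between genotypes at 5.89 and 12.2 RPKM in WT and 23.5 and 12.1 RPKM in KO. The number of calls moved with the test: edgeR called 0 genes higher at an adjusted p under 0.05, while DESeq2 called 206 higher and 13 lower. It also moved when 1 spleen library was left out. Such a fit has 1 library in that genotype and takes its spread from the other genotype alone. Without KO replicate 2 the log2 fold changes of the 12 genes named in this comparison ran from 1.18 to 2.04, against 1.34 to 1.85 with all 4 libraries. Without KO replicate 1 those of Apol8, Apol11b, Btnl10, Cenpf, Hemgn, Mki67 and Rhd were 1.55, 1.71, 1.59, 1.43, 1.87, 1.37 and 1.52. With 1 KO library left, the genes given for each of these fits were not called.

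Of 26 cell cycle genes Mki67 (log2 fold change 1.40, SE 0.17, adjusted p = 0.071) and Cenpf, a kinetochore protein (log2 fold change 1.34, SE 0.19, adjusted p = 0.097), were called higher. Both KO libraries were above both WT libraries for 24 of the 26, against 14.7% of all genes, with a median log2 fold change of 0.99. B cell genes gave 0 calls, both KO libraries were below both WT libraries for 10 of 26 against 16.9% of all genes, and their median was -0.19. Neutrophil genes gave 0 calls with a median of -0.65, and megakaryocyte genes had both KO libraries lower for 9 of 13 with a median of -0.47. Both KO libraries were also below both WT libraries for 5 of the 6 mesenchymal factors, with a median of -0.15, and for 9 of the 23 blood cell transcription factors, with a median of -0.12, and both lists gave 0 calls. Of 6 adipocyte genes 0 were called, and they summed to 19.2, 5.72, 42.0 and 36.0 RPKM. Both KO libraries were above both WT libraries for all 6, beside 14.7% of all genes, and Cfd was the most abundant. The part of that tissue, of the liver transcripts in WT replicate 2 and of the kidney transcripts in KO replicate 1 in these differences was not tested. Outside the erythroid list, 6 restricted genes were called higher in KO, among them Apol8 (log2 fold change 1.82, SE 0.21, adjusted p = 0.071), Apol11b (log2 fold change 1.68, SE 0.18, adjusted p = 0.066), Btnl10 (log2 fold change 1.71, SE 0.21, adjusted p = 0.074) and Slfn14 (log2 fold change 1.504, SE 0.18, adjusted p = 0.074). With all 20 libraries in 1 fit, which estimates the spread over all organs, no gene passed.

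**Figure D5:**
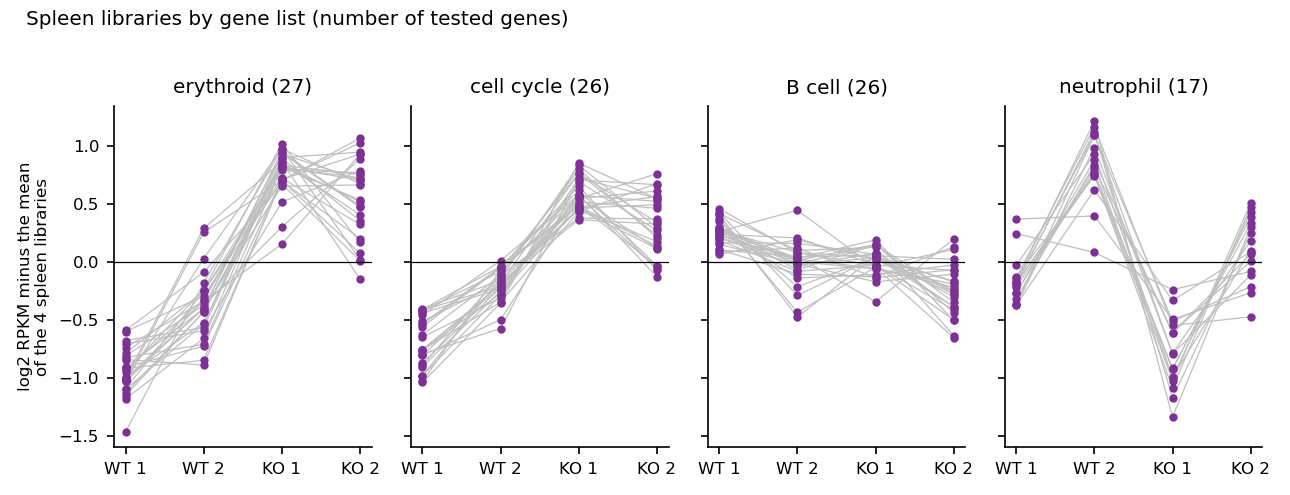
Log2 RPKM of each tested gene of 4 lists in the 4 spleen libraries, minus the gene's mean over them, with 1 point per gene and library and a line joining each gene. Most erythroid (27 genes) and cell cycle (26 genes) values are lowest in WT replicate 1 and higher in both KO libraries, neutrophil values (17 genes) peak in WT replicate 2, and B cell values (26 genes) are above their mean in WT replicate 1 and mostly below it in KO replicate 2.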

How the data were processed

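Per the labels and the file header, the authors trimmed reads with cutadapt, aligned them to mm10 with HISAT2 2.1.0 and deposited counts per gene from featureCounts 2.0.1 with Ensembl GRCm38.102, with the exon length of each gene. The methods state strand and read-pair options that the command in the header lacks, so mates may be counted singly and overlapping genes on opposite strands may share reads. From these counts, RPKM was computed with TMM factors (1.46 to 1.53 in spleen, 0.605 to 1.34 elsewhere). Genes passing filterByExpr were fitted with edgeR 4.0.16 (R 4.3.3) as 10 means of organ and genotype over 20 libraries, with 10 residual degrees of freedom, and KO against WT was also fitted over the 4 spleens. The alternatives were DESeq2 1.42.0, limma 3.58.1 on log2(TPM + 0.1), RLE and upper quartile factors, other filters and thresholds, single genotypes, a replicate block, other limits for the restricted set and leave-one-out fits, and, chosen after seeing the data, the small intestine libraries of 1 replicate number alone, which leaves 1 library of each genotype there, assumed to vary like the other groups.

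The gene lists, the tests and the rule for named genes were chosen with earlier results of these data known. The rule named the markers, 20 restricted genes and 8 genes lower than in every organ with the widest gaps, 10 genes of the genotype test, and from each list up to 6 genes with the highest spleen level and up to 3 with the smallest gap. Itgad, Ccr7, Fcmr, Epb42, Treml4, Vcam1, Cd163, Lef1, Foxp3, Klrd1, Ncr1, Kit, Myb, Elane, the Trg segments, Blnk, Vpreb3, the other promoter genes, the restricted genes just inside and outside the limit, Apol8, Apol11b and other genes outside this rule were chosen after their values were seen. Promoter sequences were those of RefSeq for GRCm38.p6. Replicates are separate samples in the labels, which do not say whether each is a separate animal, so p-values measure the spread between these samples. A few genes are not reported here by name, and counts over lists include them.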

Additional observations from a re-analysis of the deposited data

Results flagged for a closer look

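The summed level of every gene list, of the segment families and of the restricted set was checked for a spleen library standing apart. In 4 gene lists, 1 spleen library stood farther from the other 3 than Dixon's 95% criterion allows, which chance does for about 1 in 20 such groups. Genes of lymphoid stroma and vessels summed to 286 RPKM in WT replicate 1 and to 221 to 231 RPKM in the others, and that library had Ccl19 at 18.5 RPKM where the others had 0.543 to 1.15. Hepatocyte genes summed to 1950 RPKM in WT replicate 2 and to 38.2 to 132 RPKM in the others, and enterocyte genes, with Fabp1 the most abundant and also a liver gene, to 202 RPKM in WT replicate 2 and 5.67 to 13.99 RPKM in the others. Kidney genes summed to 50.7 RPKM in KO replicate 1 and to 0.426 to 0.777 RPKM in the others.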

How the results depend on the processing

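The limits of these comparisons are the number of libraries and their scaling, and depth was not varied. With 2 libraries per organ and genotype, the genotype comparison within the spleen could be moved by 1 library. The median log2 fold change of all genes against the mean of the organs was 0.01 in the main fit. Upper quartile factors moved it to 0.13, and RLE factors left it at 0.01. It was 0.55 with limma on TPM, a setting that changed the scaling, the added constant and the test together. With limma on log2(TPM + 0.1), 9254 genes were higher than the mean of the organs, 8932 higher than in small intestine, 12235 higher and 2783 lower than in liver, 4379 higher and 369 lower than in every organ, 17 and 17 passed the genotype test, 0 were higher in spleen KO, and 209 were restricted by TPM. DESeq2 called 2 and 1 genes in the genotype test and 206 higher and 13 lower in spleen KO. Without a filter on low counts the genotype test called 62 and 176 genes and spleen KO against WT 260 and 53, and with at least 10 counts in every library of an organ 104 were higher in KO. At an adjusted p under 0.05, and in 1 fit of all 20 libraries, spleen KO against WT called 0 and 0. Without a fold threshold 1779 genes were lower than in every organ. WT libraries alone gave 3686 genes higher than in small intestine, 1189 higher than in every organ and 137 restricted, and KO libraries alone 379 restricted. The restricted set held 301 genes at 5-fold, 37 at 20-fold, 143 at 0.1 RPKM and 46 at 5 RPKM.

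Leaving out 1 library at a time gave 2083 to 2585 genes higher and 942 to 1144 lower than in every organ, 72 to 215 restricted genes, 5664 to 6735 higher and 3508 to 3983 lower than the mean of the organs, 0 to 1 higher and 0 to 16 lower in the genotype test, and 0 to 265 higher and 0 to 301 lower in spleen KO. The highest restricted count came without small intestine WT replicate 1, the lowest without small intestine KO replicate 1. The spleen KO counts of 0 came without KO replicate 2, that of 265 without WT replicate 2 and that of 301 without WT replicate 1. Without KO replicate 2 all 12 genes named in that comparison lost their call, at log2 fold changes of 1.18 to 2.04 and adjusted p-values of 0.12 to 0.41. The remaining counts against single organs stayed within 1.5 times their value in all of these fits. The cause of these shifts was not tested, except that fits with fewer libraries have fewer degrees of freedom. In spleen KO against WT, leaving out a spleen library leaves 1 in that genotype, so the counts of calls from those fits are a description.

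Same-numbered libraries deviated together little (correlations of -0.0025 to 0.163 between spleen and the other organs, 0.0121 between spleen WT and KO), except in small intestine, where WT and KO deviations correlated at 0.481, and in heart at 0.248, so the numbers were not taken as a pairing across organs. With the replicate block, 2336 genes were higher and 1098 lower than in every organ, 0 and 0 passed the genotype test, and 42 and 1 were called in spleen KO, and Igkc passed against small intestine at 1.79 (adjusted p = 0.082). With the small intestine libraries numbered 2 alone 218 genes were restricted, and with those numbered 1 alone 104. All other counts over the genes tested stayed within 1.5 times their value in both fits.

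Values that changed sign were all uncalled ones, except Igha. With limma the median log2 fold change of all genes rose from 0.10 to 0.59 against small intestine and from 0.24 to 1.12 against liver. It rose from 0 to 0.35 against kidney and from 0.14 to 0.63 against heart. Values of single genes with limma include that shift, so a change of sign with limma alone decides nothing about a gene. Against small intestine, the log2 fold change of Jchain was 0.98 with limma, 0.31 with the replicate block, 0.47 in KO libraries alone, 1.82 against small intestine libraries numbered 1 alone and -0.63 to 1.24 in leave-one-out fits, and that of Igha 0.97 with limma, 1.96 against small intestine libraries numbered 1 alone and -1.07 to 1.90 in leave-one-out fits. Against liver, Cd163 was at 0.87 with limma, Fcna at -0.0036 and Stab2 at -0.0080 in KO libraries alone, and the leave-one-out ranges were -0.081 to 0.33 for Fcna, -0.061 to 0.18 for Stab2 and -0.0012 to 0.38 for Siglec1. Limma, with its shift of all genes, called Fcna, Stab2, Siglec1 and Dnase1l3 higher than in liver at 1.31, 1.29, 1.34 and 1.95. It also called C1qa higher than in heart at 1.42 and Wt1 higher than in kidney at 1.19. Against kidney, Tcf21 was at 0.40 with limma, 0.019 with small intestine libraries numbered 1 alone and -0.32 to 0.34 in leave-one-out fits and Car2 at -0.40 in WT libraries alone. Ctla4 against heart ran from -0.12 to 0.38 in leave-one-out fits.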
